A study of Mus musculus with 24 samples.

Results

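The genes described here are the nuclear genes with Mrpl and Mrps symbols, which encode the protein subunits of the mitochondrial ribosome. They were chosen by symbol alone, as every gene whose name is Mrpl or Mrps followed by a number and at most 1 letter. This gave 78 of the 24825 genes listed, 49 with Mrpl symbols, given to proteins of the large subunit, and 29 with Mrps symbols, given to proteins of the small subunit. The symbols do not match the subunits fully, since Mrps18a and Mrps30 are part of the large subunit and Mrps36 is now assigned to the 2-oxoglutarate dehydrogenase complex. All 78 were among the 12640 genes that had enough signal to be tested, and the lowest value of any of them in any library was 2.85 FPKM, which is 74 reads.

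RNA-seq was performed on stromal vascular fraction cells of inguinal white adipose tissue from Nfia flox/flox mice, in which exon 2 of Nfia, the gene of the transcription factor NFIA, is floxed. All 4 cell types were immortalised with SV40 large T antigen and were then given retroviruses. ctrl received an empty virus and Cre received Cre recombinase. Cre + NFIA received Cre and full-length FLAG-tagged NFIA, and Cre + NFIA Δpro#3 received Cre and a FLAG-tagged NFIA without the pro#3 segment of its C-terminal proline-rich domain. Each was collected at day 0 and at day 7 of differentiation into thermogenic adipocytes, in 3 replicates, so that 24 libraries fell into 8 groups of 3. The differentiation medium held isobutylmethylxanthine, indomethacin, dexamethasone, insulin, T3 and rosiglitazone, and later insulin, T3 and rosiglitazone. Because every cell type is an immortalised culture and the replicates are not stated to be separate cultures, p-values measure the spread between these libraries, which may be technical. The comparisons ask how these genes change as the cells differentiate, and how that change differs without Nfia, with NFIA returned, and with NFIA that lacks pro#3.

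Mitochondria have their own ribosome, which translates the few proteins encoded by mitochondrial DNA. Those proteins are core subunits of the respiratory chain and of the ATP synthase. The ribosomal RNAs come from mitochondrial DNA, whereas the ribosomal proteins are all encoded in the nucleus, made in the cytosol and imported. Many of the proteins have counterparts in bacterial ribosomes, and others are found only in mitochondria. Brown and beige adipocytes are rich in mitochondria, and building the thermogenic respiratory chain needs nuclear and mitochondrial subunits together.

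The libraries held 7732829 to 14622189 reads, and 0.223% to 0.486% of the reads of a library fell on the 78 genes. Nfia itself was 6.47 ± 0.264 FPKM (SD, n = 3) in ctrl and 6.21 ± 0.773 in Cre at day 0, and 9.55 ± 0.355 and 10.1 ± 0.588 at day 7. Gene-level Nfia thus differed little between the libraries labelled Cre and ctrl (log2 difference −0.06 and 0.07, limma adjusted p = 0.687 and 0.426). A value for the whole gene does not check the loss of a single exon, so directions below are those of the labels. By its own assays, the paper reports efficient recombination in genomic DNA and a nearly complete loss of NFIA mRNA and protein in Cre cells. With the transgenes, Nfia was 89.99 ± 6.68 FPKM in Cre + NFIA and 101.9 ± 8.44 in Cre + NFIA Δpro#3 at day 7, values that include transgene reads. Among markers of cell types that the fraction could also hold, Adgre1 of macrophages and Myod1 and Myh8 of skeletal muscle were at 0 in every library. The most reads in any library were 3 for Cdh5, Krt18 and Myog, 2 for Epcam, and 1 for Ckm, Krt8 and Ptprc. Others on these lists were present at low levels, with at most 430 reads for Tek and 245 for Kdr, of endothelial cells, 176 for Csf1r and 131 for Cd68, of macrophages, and 126 for Acta1, of skeletal muscle. Acta1 was lower in Cre than in ctrl at day 7 (log2 difference −0.55, SE 0.18, limma adjusted p = 0.0175) and higher in Cre + NFIA than in Cre (1.38, SE 0.18, adjusted p = 2.66e-05). The summed FPKM of the muscle list at day 7 was 2.13 to 3.82 in ctrl, 1.44 to 2.09 in Cre, 5.54 to 6.43 in Cre + NFIA and 1.64 to 3.12 in Cre + NFIA Δpro#3. The macrophage list summed to 5.31 to 5.93, 6.33 to 7.999, 4.45 to 6.55 and 9.78 to 10.5 FPKM in the same order, and the endothelial list to 1.67 to 2.18, 2.83 to 2.92, 2.09 to 2.87 and 4.64 to 5.17. Their part in the results was not tested.

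The 78 genes lay on 17 chromosomes, 11 of them on chromosome 11. Promoter sequence is shown for 5 genes that the results turn on. Mrpl12, Mrps22 and Mrps6 changed most with differentiation, and Mrps18a is one of 3 genes of a protein family. Mrpl52 was called in none of the comparisons between cell types at day 7. Each line ends where the annotated transcript begins. It gives the strand of the gene, 5′ to 3′, as RefSeq has it, located by exact match in NCBIM37, the assembly that mm9 names. Capitals mark GCGC followed after 2 bases of any kind by GCGC, a sequence that NRF1 can bind, CCGGAAG, a sequence of ETS factors such as GABP, or AAGATGGC, a sequence of YY1, on either strand.

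Mrpl12, chr11:120345701-120345926, plus strand: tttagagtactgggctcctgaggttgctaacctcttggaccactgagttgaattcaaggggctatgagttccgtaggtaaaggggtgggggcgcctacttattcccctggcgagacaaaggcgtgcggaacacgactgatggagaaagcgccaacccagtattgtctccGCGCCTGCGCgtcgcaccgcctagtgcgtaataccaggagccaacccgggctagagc
Mrps22, chr9:98502099-98502348, minus strand: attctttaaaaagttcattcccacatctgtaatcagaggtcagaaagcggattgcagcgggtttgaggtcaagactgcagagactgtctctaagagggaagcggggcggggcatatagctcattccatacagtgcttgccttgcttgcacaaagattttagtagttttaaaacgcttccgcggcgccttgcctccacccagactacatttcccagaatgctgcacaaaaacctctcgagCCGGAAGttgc
Mrps6, chr16:92058331-92058514, plus strand: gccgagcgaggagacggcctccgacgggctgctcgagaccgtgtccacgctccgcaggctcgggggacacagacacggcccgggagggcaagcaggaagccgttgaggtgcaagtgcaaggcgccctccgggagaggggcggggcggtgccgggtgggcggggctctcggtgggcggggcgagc
Mrps18a, chr17:46247703-46247934, plus strand: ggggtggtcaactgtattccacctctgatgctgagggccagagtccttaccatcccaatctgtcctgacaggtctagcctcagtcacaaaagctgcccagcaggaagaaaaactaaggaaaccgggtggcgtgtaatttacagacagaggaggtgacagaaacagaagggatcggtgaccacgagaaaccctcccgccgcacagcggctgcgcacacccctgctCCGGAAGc
Mrpl52, chr14:55045496-55045745, plus strand: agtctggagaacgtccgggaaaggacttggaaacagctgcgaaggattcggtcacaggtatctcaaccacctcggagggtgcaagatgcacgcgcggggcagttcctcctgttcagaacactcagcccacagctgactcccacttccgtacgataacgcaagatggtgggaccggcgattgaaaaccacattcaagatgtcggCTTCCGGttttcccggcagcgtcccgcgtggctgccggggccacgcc

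The NRF1-type sequence of Mrpl12 begins 81 bases before the RefSeq start, and the CCGGAAG of Mrps22, Mrps18a and Mrpl52 lies 11, 26 and 47 bases before theirs. None of the 3 sequences was found in the window of Mrps6. Promoter windows of 250 bases before to 50 after the start were on hand for 69 of the 78 genes, as 75 windows. CCGGAAG or its reverse complement was in 26 of these windows (34.7%), against 17.6% of the windows of all tested genes and 8.86% of all windows. AAGATGGC was in 12 (16%), against 4.43% and 2.75%. The window of Mrps18a was among these 12, with the match outside the line printed above. The NRF1-type sequence was in 14 (18.7%), against 13.2% and 6.23%. The NFI palindrome (TTGGC and GCCAA with 5 bases of any kind between), the PPAR repeat (AGGTCA given again after 1 base) and the ERR sequence TCAAGGTCA were in none of the 75 windows and in 0.0328%, 0.0246% and 0.255% of the windows of tested genes. Both strands were searched. These are matches of letters in short windows, and binding was not measured here.

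Levels differed widely among the genes. FPKM is per kilobase of gene length, so levels can be set side by side, and the mean over the 24 libraries spanned 26.6-fold. The highest were Mrps6 at 125 FPKM, Mrps21 at 123, Mrpl42 at 108, Mrpl54 at 104 and Mrpl33 at 103, which together made 18.5% of the summed FPKM of the 78 genes. The lowest were Mrps25 at 4.72, Mrpl48 at 5.05, Mrpl19 at 5.51, Mrpl1 at 5.52 and Mrpl17 at 7.29. The median gene was at 29.04 FPKM, against 10.9 for all tested genes. Values of Mrps6, Mrpl33, Mrpl48, Mrpl53, Mrps24 and Mrps34 are less certain, because each overlaps another gene on the same strand (Slc5a3 in the case of Mrps6).

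Differentiation of ctrl cells raised nearly all of these genes together. The summed FPKM of the 78 genes was 2350, 2065 and 2270 in the ctrl libraries at day 0 and 4007, 4581 and 4229 at day 7. In Cre the sums were 2377, 2500 and 2443 at day 0 and 2915, 3244 and 2742 at day 7. In Cre + NFIA they were 2662, 2600 and 2630 at day 0 and 4419, 4475 and 4433 at day 7. Cre + NFIA Δpro#3 had 2759, 2685 and 2900 at day 0 and 2627, 2729 and 2460 at day 7. At day 7 ctrl and Cre + NFIA overlapped and lay above the other cell types, whereas Cre lay just above Cre + NFIA Δpro#3. The ratio of the mean sums, day 7 over day 0, was 1.92 in ctrl, 1.69 in Cre + NFIA, 1.22 in Cre and 0.937 in Cre + NFIA Δpro#3. Mrpl genes made up 61.4% to 65.5% of the sum in every library.

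**Figure D1:**
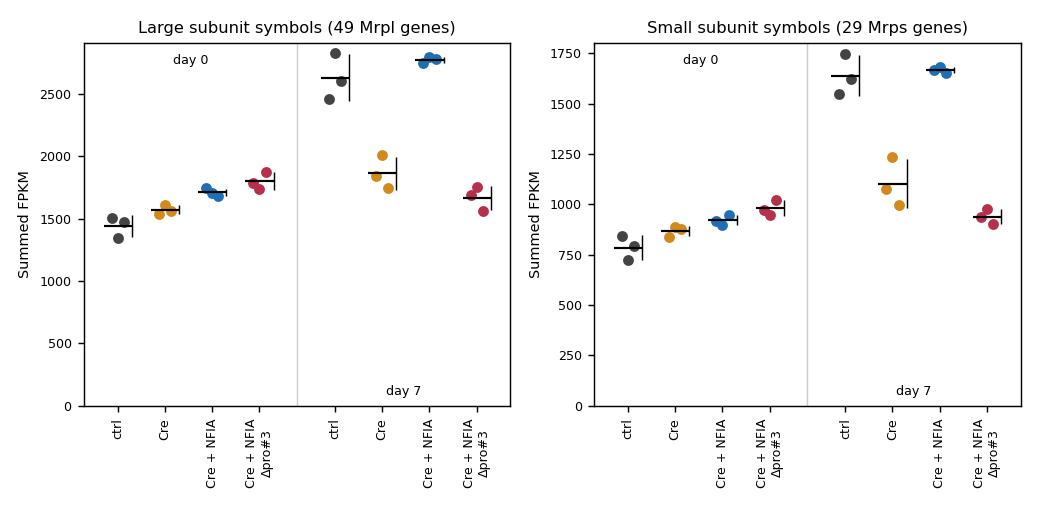
Summed FPKM of the 49 Mrpl genes (left) and the 29 Mrps genes (right) in each of the 24 libraries (points), with the mean (horizontal line) and SD (vertical line, n = 3) of each group. At day 7 the ctrl and Cre + NFIA libraries were above all Cre and Cre + NFIA Δpro#3 libraries in both panels.

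Of the 78 genes 75 were higher at day 7 than at day 0 in ctrl and none was lower (limma, adjusted p under 0.05), against 32.9% and 38.1% of all tested genes. 66 changed at least 1.5-fold (38.3% of all) and 3 at least 3-fold (8.5% of all). The median change was 0.83 on the log2(FPKM + 1) scale, against −0.05 over all tested genes. Mrpl12, a protein of the flexible stalk that recruits translation factors to the large subunit, had 47.2, 36.4 and 41.0 FPKM on day 0, compared with 171, 212 and 185 on day 7 (log2 change 2.17, SE 0.12, limma adjusted p = 1.59e-12). Mrps22, a small subunit protein found only in mitochondria, went from 5.99, 10.8 and 8.74 to 32.7, 36.9 and 38.3 (1.99, SE 0.15, adjusted p = 1.73e-10). Mrps6, which has a bacterial counterpart, went from 83.2, 60.8 and 64.1 to 232, 249 and 246 (1.80, SE 0.12, adjusted p = 3.24e-11). Its values, here and below, are less certain, because the gene overlaps Slc5a3 on the same strand. For these 3 genes, and for 75 of the 78, no day 7 value overlapped a day 0 value, which held for 71.0% of all tested genes. Across the 78 genes, which share these libraries, the Spearman rho of the change was 0.091 with the mean level and −0.056 with the length of the gene.

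The other cell types differed in this change. In Cre + NFIA 74 genes were higher at day 7 and none was lower (31.8% and 38.3% of all tested genes, median change 0.72), with 50 past 1.5-fold (37.9% of all) and 2 past 3-fold (9.08% of all). In Cre 48 were higher and 2, Mrpl23 and Mrpl24, were lower (30% and 21.6% of all, median 0.29), with 8 past 1.5-fold (17.9% of all) and none past 3-fold (2.73% of all). In Cre + NFIA Δpro#3 3 were higher and 11 were lower (24.5% and 17% of all, median −0.07), with none past 1.5-fold (12.1% of all) or 3-fold (1.46% of all). The 3 genes higher in all 4 cell types were Mrpl16 and Mrps2, which have bacterial counterparts, and Mrps31, which is found only in mitochondria. Mrps31 was at 8.37, 8.15 and 6.86 FPKM in ctrl at day 0 and 16.2, 18.2 and 17.9 at day 7. With Δpro#3 it was 8.15, 7.31 and 9.13 at day 0 and 10.9, 10.4 and 9.70 at day 7 (log2 change 0.31, SE 0.08, limma adjusted p = 0.00487). Mrpl38, a large subunit protein found only in mitochondria, moved in opposite directions in these cells, by 1.04 in ctrl and −0.41 in Cre + NFIA Δpro#3 (SE 0.10 in both, limma adjusted p = 8.7e-09 and 0.00266). In Cre + NFIA Δpro#3 9 genes were called without its replicate 3 of day 0 and 7 without its replicate 3 of day 7, against 14 with all libraries.

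**Figure D2:**
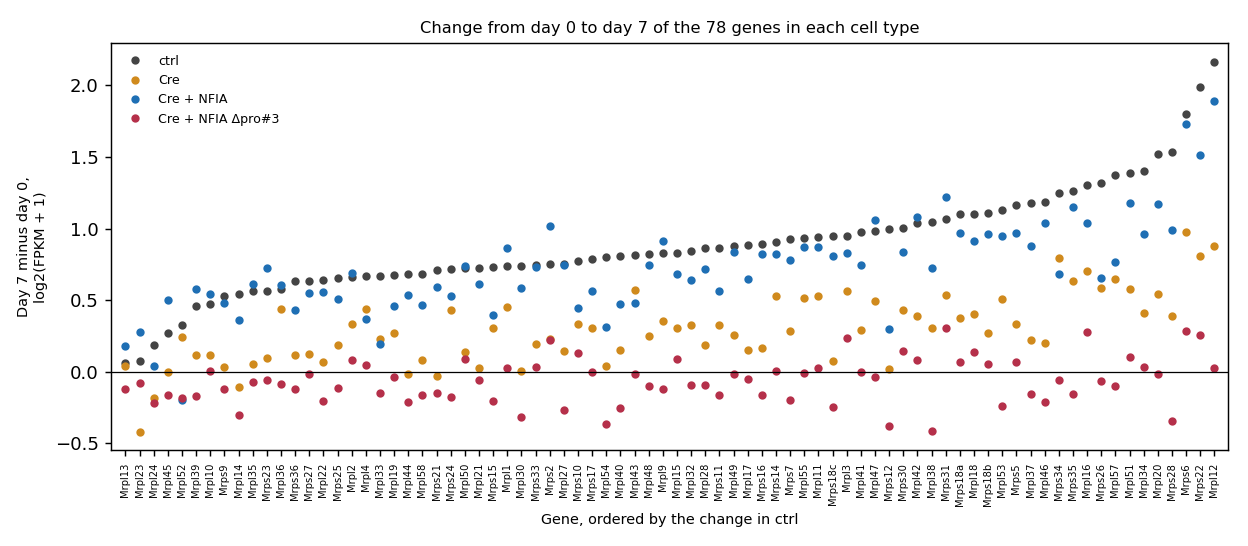
Difference in mean log2(FPKM + 1) between day 7 and day 0 for each of the 78 genes in each cell type (points, 3 libraries per group and day), ordered along the x axis by the change in ctrl. Changes in Cre + NFIA Δpro#3 lie around 0 (median −0.07) while those in ctrl run from 0.06 to 2.17.

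At day 7 the libraries labelled Cre held less of nearly all of these transcripts than ctrl. 73 genes were lower and none higher, against 22.7% and 36.1% of all tested genes, with a median difference of −0.47 against 0.09 over all tested genes. The differences were modest in size, 24 genes reaching 1.5-fold (23.5% of all tested genes) and none 3-fold (1.51%). With median-of-ratios scaling 75 genes were lower and none higher, while over all tested genes 3462 were higher and 3881 lower, against 4563 and 2867 without it. Mrpl12 was at 87.0, 103 and 67.2 FPKM in Cre, below the lowest ctrl value of 171 (log2 difference −1.15, SE 0.13, limma adjusted p = 1.73e-05). Mrpl20, a large subunit protein with a bacterial counterpart, had 98.8, 111 and 98.8 FPKM in the ctrl libraries and 53.8, 59.8 and 43.6 in Cre (−0.97, SE 0.10, adjusted p = 9.58e-06). Mrpl46, found only in mitochondria, was at 19.5, 26.3 and 22.7 in ctrl and 12.3, 13.3 and 8.89 in Cre (−0.94, SE 0.13, adjusted p = 8.55e-05). In all 3 the groups were apart, as for 68 of the 78 genes, against 64.0% of all tested genes. Mrpl4, Mrpl13, Mrpl43, Mrpl52 and Mrps24 were not called.

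At day 0 the same comparison called 3 genes, Mrpl40, Mrpl49 and Mrpl54, all higher in Cre (1.63% of all tested genes were higher and 1.7% lower, median difference 0.09), and none past 1.5-fold (0.609%) or 3-fold (0.0237%). Without Cre replicate 2 or 3 of day 0, 1 gene was called. The interaction, which tests whether the difference between Cre and ctrl changed from day 0 to day 7, was called for 69 genes, all lower (19.5% of all tested genes were lower and 29.7% higher), with a median of −0.58, 37 past 1.5-fold (25.7%) and none past 3-fold (1.53%). With median-of-ratios scaling it was lower for 72 genes, and over all tested genes 2896 were higher and 3204 lower, against 3753 and 2471 without it. It was −1.29 for Mrpl12 (SE 0.17, limma adjusted p = 4.68e-06), −0.98 for Mrpl20 and −0.98 for Mrpl46. It was below 0 for all 78 genes.

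Full-length NFIA was accompanied by higher levels. In Cre + NFIA against Cre at day 7, 73 genes were higher and none lower, against 27% and 35.9% of all tested genes, with a median difference of 0.57 against −0.06 over all genes. 33 reached 1.5-fold (28.9% of all) and none 3-fold (3.63%). With median-of-ratios scaling 77 genes were higher and none lower, and over all tested genes 4207 were higher and 3718 lower, against 3418 and 4540 without it. This comparison shares the Cre libraries with the last one, so the values are given side by side and are not independent. Mrpl12 was at 218, 208 and 218 FPKM in Cre + NFIA, all above the highest Cre value of 103 (1.34, SE 0.13, limma adjusted p = 3.38e-06). Mrpl42, found only in mitochondria, was at 97.3, 106 and 92.4 in Cre and 193, 187 and 177 in Cre + NFIA (0.91, SE 0.06, adjusted p = 2.29e-07). Mrps35, of the small subunit and found only in mitochondria, was at 21.3, 27.2 and 19.3 in Cre and 39.1, 43.4 and 43.5 in Cre + NFIA (0.88, SE 0.10, adjusted p = 8.96e-06). In all 3 genes the groups were apart, as for 75 of the 78 genes (70.2% of all tested genes). Mrpl14, Mrpl23, Mrpl43, Mrpl52 and Mrps36 were not called. The interaction of day with Cre + NFIA against Cre was called for 58 genes, all higher (18.8% of all tested genes were higher and 30.1% lower), with a median of 0.47, 22 past 1.5-fold (27.2%) and none past 3-fold (2.86%). With median-of-ratios scaling it was higher for 64, and over all tested genes 3131 were higher and 2931 lower, against 2378 and 3805 without it.

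NFIA without pro#3 gave no such rise. In Cre + NFIA Δpro#3 against Cre at day 7, 13 genes were lower and none higher, against 10% and 7.7% of all tested genes. The median difference was −0.18, against 0.02 over all tested genes, and 74 of the 78 differences were below 0. None reached 1.5-fold (4.98% of all tested genes) or 3-fold (0.625%). Mrps6 was at 130.1, 167 and 127 FPKM in Cre and 97.7, 93.7 and 95.3 in Cre + NFIA Δpro#3 (−0.55, SE 0.09, limma adjusted p = 0.00157). Mrps35 was at 15.4, 16.3 and 16.4 in Cre + NFIA Δpro#3 (−0.46, SE 0.10, adjusted p = 0.00769), and Mrpl38 was at 31.3, 34.5 and 26.4 in Cre and 21.1, 24.1 and 23.4 in Cre + NFIA Δpro#3 (−0.41, SE 0.09, adjusted p = 0.00769). None of these 3 genes overlapped between the groups, as for 29 of the 78 genes (32.8% of all tested genes). That number was near the share over all tested genes, and nothing about the 78 genes is read from it. In either direction 16.7% of the 78 genes were called, against 17.7% of all tested genes. The number of genes called moved with single Cre libraries: 8 were called without Cre replicate 1, 8 without replicate 2 and 25 without replicate 3. The shares over all tested genes in these runs are not given. With only these groups in the model 5 genes were called, and Mrps35 and Mrpl38 were not (adjusted p = 0.0576 and 0.0539).

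The forms of NFIA differed at day 7. 77 genes were lower in Cre + NFIA Δpro#3 than in Cre + NFIA and none was higher, against 28.9% and 40.4% of all tested genes, and Mrpl52 was the one not called. The median was −0.71 against 0.10 over all genes, with 59 genes past 1.5-fold (35.7%) and 1, Mrpl12, past 3-fold (6.92%). Mrpl12 differed by −1.65 (SE 0.13, limma adjusted p = 3.54e-07), Mrps35 by −1.33 (SE 0.10, adjusted p = 1.65e-07) and Mrps6 by −1.28 (SE 0.09, adjusted p = 1.01e-07). The interaction of day with Cre + NFIA Δpro#3 against Cre was called for 32 genes, all lower (10.4% of all tested genes were lower and 7.79% higher), with a median of −0.32, 11 past 1.5-fold (7.57%) and none past 3-fold (0.767%). It was called for 18 genes without Cre replicate 2 of day 7 and for 20 without Cre + NFIA Δpro#3 replicate 3 of day 0.

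**Figure D3:**
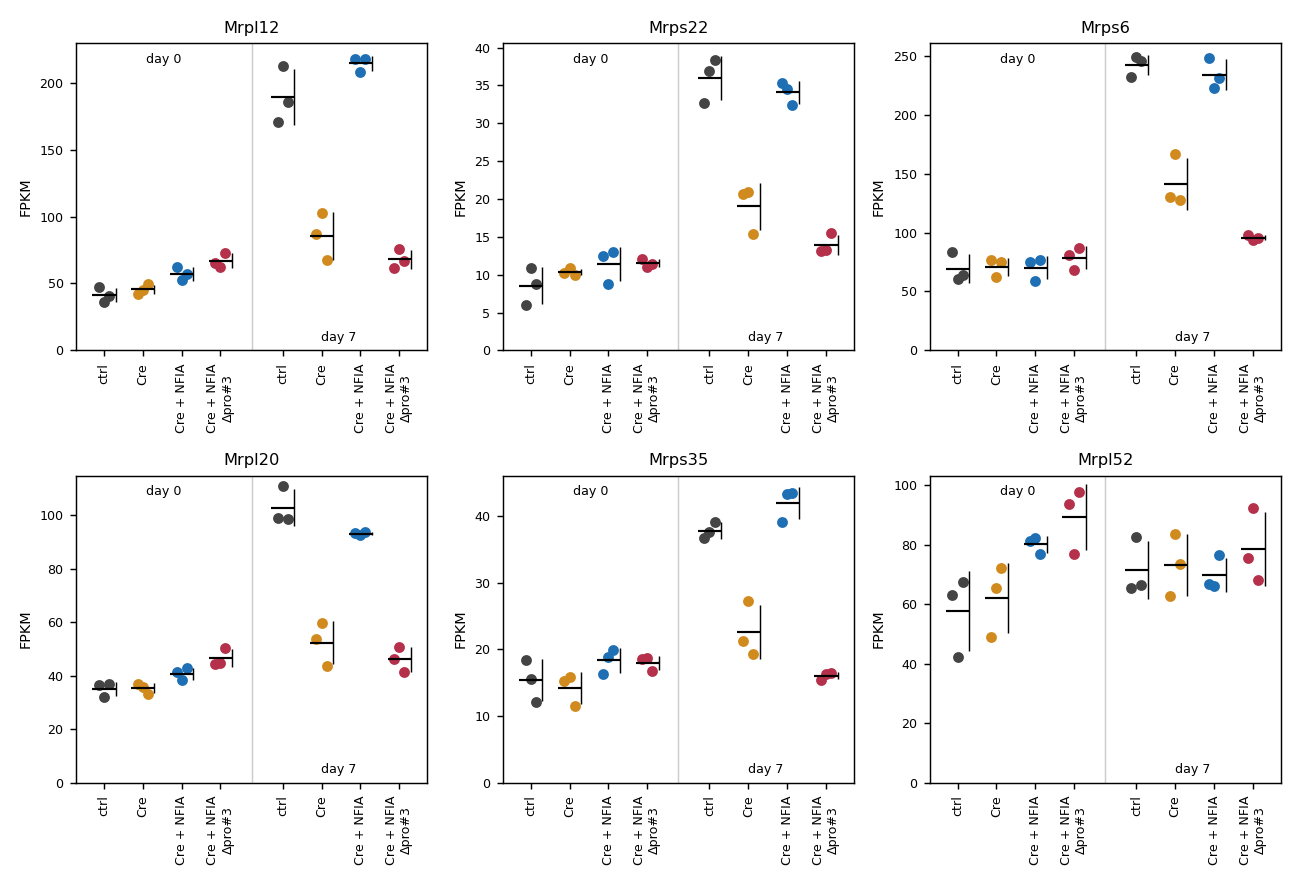
FPKM of 6 genes in each library (points), with the group mean (horizontal line) and SD (vertical line, n = 3), by cell type at day 0 and day 7. Mrpl12, Mrps22, Mrps6, Mrpl20 and Mrps35 were high at day 7 in ctrl and Cre + NFIA, whereas the day 7 groups of Mrpl52 overlapped.

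At day 0, before differentiation, few of the genes were called between cell types. In Cre + NFIA against Cre 12 genes were higher and 2, Mrpl23 and Mrpl49, were lower (14.7% and 12.9% of all tested genes, median 0.12), and 1 passed 1.5-fold (6.91%) and none 3-fold (0.538%). The number higher was thus near the share over all tested genes, and nothing about these genes is read from it. These counts became 9 and 3 with median-of-ratios scaling and 11 and 3 with quantile normalization. In Cre + NFIA Δpro#3 against Cre 14 were higher and none lower (9.26% and 9.02% of all tested genes, median 0.16), and 1 passed 1.5-fold (3.47%) and none 3-fold (0.142%). The largest rise in both was that of Mrps34, from 14.8, 20.4 and 16.9 FPKM in Cre to 26.7, 26.7 and 28.9 in Cre + NFIA and 27.7, 27.7 and 26.9 in Cre + NFIA Δpro#3 (log2 difference 0.64, SE 0.12 in both, limma adjusted p = 0.00304 and 0.0052). Neither group overlapped Cre. The values of Mrps34 are less certain, because the gene overlaps Nme3 on the same strand. The cell types with either transgene also had higher summed FPKM of 10 proliferation genes at day 0 (784 to 801 in Cre + NFIA and 759 to 771 in Cre + NFIA Δpro#3, against 638 to 688 in Cre). The part of proliferation in these differences was not tested. Both counts moved with single libraries. For full-length NFIA 9 genes were called without Cre replicate 1, 8 without Cre replicate 3, 6 without Cre + NFIA replicate 1 and 9 without its replicate 2 or 3. For Δpro#3 9 were called without Cre replicate 2, and 8, 9 and 6 without replicates 1, 2 and 3 of Cre + NFIA Δpro#3.

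A few genes stood aside from the rest. Mrpl52, a large subunit protein found only in mitochondria, was at 65.2, 82.6 and 66.4 FPKM in ctrl at day 7, 62.5, 83.5 and 73.4 in Cre, 66.7, 66.2 and 76.4 in Cre + NFIA and 75.5, 92.1 and 67.9 in Cre + NFIA Δpro#3. All 4 groups overlapped, and the difference between Cre and ctrl was 0.03 (SE 0.13, limma adjusted p = 0.846). Mrpl13, with a bacterial counterpart, was at 97.5, 88.4 and 88.3 in ctrl at day 0 and 92.3, 97.8 and 95.8 at day 7 (0.06, SE 0.06, adjusted p = 0.388). Mrpl23, which sits at the exit of the peptide tunnel, was the third gene not called in ctrl (0.08, SE 0.13, adjusted p = 0.619) and fell in Cre, from 24.3, 23.6 and 26.5 to 18.8, 17.3 and 18.8 (−0.42, SE 0.13, adjusted p = 0.0127). A p that misses the threshold does not show that a gene stayed the same.

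By symbol, Mrpl and Mrps genes had similar counts and medians. In ctrl 46 of 49 Mrpl genes and 29 of 29 Mrps genes rose with differentiation (medians 0.82 and 0.91), and in Cre against ctrl at day 7 45 and 28 were lower (medians −0.46 and −0.49). By ancestry, 73 of the 78 genes were classed by subunit and by whether bacteria have a counterpart, with Mrps30 in the large subunit. Among large subunit genes 27 of 29 with a counterpart and 18 of 20 without were lower in Cre (medians −0.45 and −0.49), and among small subunit genes 14 of 15 and 9 of 9 (medians −0.50 and −0.46). The 5 genes not classed, Mrpl55, Mrps18a, Mrps18b, Mrps28 and Mrps36, were all lower in Cre, by −0.40, −0.52, −0.64, −0.79 and −0.35.

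Genes with a particular place in the ribosome were lower in Cre too. The stalk proteins other than Mrpl12, namely Mrpl10 and Mrpl11, were lower in Cre than in ctrl at day 7 by smaller amounts, −0.28 and −0.45 (SE 0.06 and 0.07, limma adjusted p = 0.00158 and 0.0001). Mrpl44, which has a ribonuclease fold, and Mrpl45, which lies near the membrane at the tunnel exit, differed by −0.62 and −0.32 (SE 0.08 and 0.06, adjusted p = 3.66e-05 and 0.000466). Mrpl41 and Mrpl57, of the large subunit, and Mrps12, of the decoding centre, differed by −0.50, −0.48 and −0.68, all called. Mrps18a, Mrps18b and Mrps18c are members of one protein family, of which Mrps18a sits in the large subunit. Their differences in the same comparison were −0.52, −0.64 and −0.63 (SE 0.11, 0.07 and 0.08), all called. Mrps30 differed by −0.46 (SE 0.11). Mrps36, now assigned to a complex other than the ribosome, differed by −0.35 (SE 0.12, adjusted p = 0.0229). With NFIA it differed by 0.28 (SE 0.12, adjusted p = 0.0556), which was not called.

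5 genes of the mitochondrial ribosome carry other names, of which 4 belong to the small subunit and Gadd45gip1 to the large. Dap3, Ptcd3, Chchd1, Aurkaip1 and Gadd45gip1 all rose with differentiation in ctrl (median 0.76), all 5 were lower in Cre than in ctrl at day 7 (median −0.35), and 4 rose with full-length NFIA, the exception being Gadd45gip1 (0.22, SE 0.10, limma adjusted p = 0.0803). Ptcd3 differed by −0.60 in Cre against ctrl (SE 0.09, limma adjusted p = 0.000102), Aurkaip1 by −0.59 (SE 0.09, adjusted p = 0.000101), Chchd1 by −0.35 (SE 0.08, adjusted p = 0.00219), Gadd45gip1 by −0.32 (SE 0.10, adjusted p = 0.0173) and Dap3, a GTP-binding subunit, by −0.24 (SE 0.06, adjusted p = 0.00254).

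Other lists of mitochondrial translation had smaller medians than the 78 genes, in the same direction, in ctrl with differentiation and in Cre relative to ctrl. Of 14 translation factors 10 rose in ctrl and none fell (median 0.61), and 9 were lower in Cre at day 7 (median −0.40). The elongation factor Tufm, which brings tRNAs to the ribosome, was at 68.96 FPKM in ctrl on average and 38.0 in Cre at day 7 (−0.84, SE 0.06, limma adjusted p = 1.25e-06), and the elongation factor Gfm1 was at 59.6 and 35.96 (−0.72, SE 0.07, adjusted p = 7.8e-06). Tsfm, which recycles Tufm, differed by −0.37 (SE 0.08, adjusted p = 0.00118). Of 20 aminoacyl-tRNA synthetases 12 were lower in Cre and none higher (median −0.33). Of 25 tested assembly and rRNA factors 12 were lower and 1 higher (median −0.22), and of 12 genes of mitochondrial transcription and RNA processing 10 were lower and 1 higher (median −0.39).

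Genes of regulators known to drive mitochondrial biogenesis were mixed, with 3 of 9 lower and 1 higher in Cre against ctrl at day 7. Ppargc1a, the coactivator PGC-1α, had 1.14, 1.49 and 1.70 FPKM in the ctrl libraries, against 0.531, 0.332 and 0.165 in Cre. It was at 5.91, 6.13 and 5.55 in Cre + NFIA and 0.0910, 0.201 and 0.179 in Cre + NFIA Δpro#3, so that Cre + NFIA stood above ctrl. Ppargc1b averaged 16.7, 6.99, 11.8 and 2.11 FPKM in the same order, and the nuclear receptor gene Esrra 36.5, 24.02, 36.7 and 19.6. Pprc1, of the same coactivator family, ran the other way, with 19.7, 25.4, 15.5 and 27.0. The differences between Cre and ctrl were −0.87, −1.20, −0.59 and 0.35 for these 4 genes (SE 0.12, 0.20, 0.10 and 0.07), all called by limma. Nrf1 and Gabpa, whose proteins bind the NRF1-type sequence and CCGGAAG searched above, differed by −0.10 each (SE 0.07 and 0.08, limma adjusted p = 0.205 and 0.31), neither called. Myc differed by 0.10 (SE 0.07, limma adjusted p = 0.246), not called either. The gene of YY1, whose sequence was also searched, is not given here. Tfam, the mitochondrial transcription factor of the transcription list, differed by −0.24 (SE 0.07, adjusted p = 0.00917).

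Cytosolic ribosomal protein genes had medians near 0 in Cre relative to ctrl and in ctrl with differentiation, and genes of the respiratory chain had larger medians than the 78 genes. Of 75 tested cytosolic ribosomal protein genes 7 were higher and 8 lower in Cre against ctrl at day 7 (median 0.01), and 16 rose and 19 fell in ctrl with differentiation (median 0.00). The balance of the cytosolic genes depended on the scaling, being 2 higher and 20 lower in Cre with median-of-ratios scaling and 46 higher and 3 lower with quantile normalization, and in ctrl 22 rose and 15 fell with the former and 7 rose and 43 fell with the latter. In Cre + NFIA against Cre at day 7 the cytosolic genes had 3 higher and 26 lower (median −0.15), which became 8 and 8 with median-of-ratios scaling and 0 and 57 with quantile normalization. In Cre + NFIA Δpro#3 against Cre they had 3 higher and none lower, and against Cre + NFIA 48 higher and 3 lower (median 0.28). With differentiation 63 of the 75 fell in Cre + NFIA and none rose (median −0.45), 32 fell and 1 rose in Cre (median −0.16), and 49 fell and none rose in Cre + NFIA Δpro#3 (median −0.26). Of 78 tested respiratory chain and ATP synthase genes 75 were lower in Cre and none higher (median −0.74), 76 rose with full-length NFIA (median 0.85), and 48 were lower with Δpro#3 (median −0.32). In ctrl 77 rose with differentiation (median 1.42). No test between the lists was run.

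**Figure D4:**
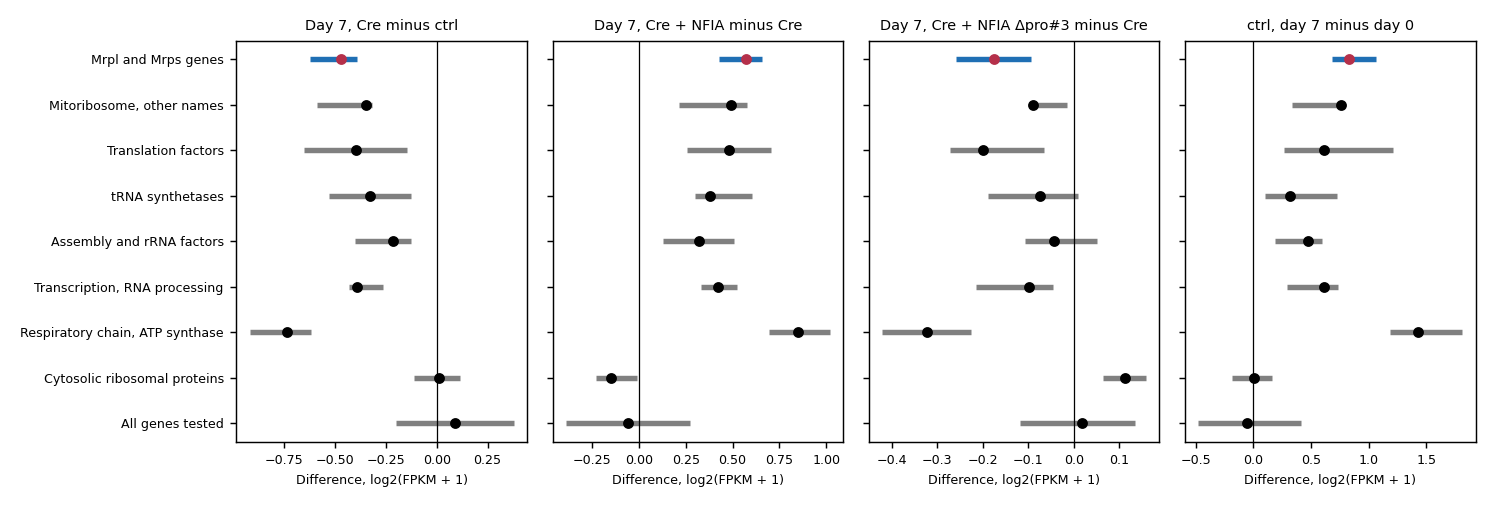
Median (point) and interquartile range (bar) over the genes of each list of the difference in log2(FPKM + 1), for 3 comparisons at day 7 and for differentiation in ctrl. The Mrpl and Mrps genes (top, median −0.47, 0.57, −0.18 and 0.83) lie between the respiratory chain genes and all tested genes in all 4 panels.

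Several of the 78 genes share a promoter region with a neighbour. A head-to-head protein-coding gene, starting within 1000 bases on the other strand with an overlap of at most 500 bases, was annotated for 26 of 78 genes (33.3%), against 1578 of 10627 tested genes with a position (14.8%). Mrpl46 and Mrps11 are such a pair, which overlap by 412 bases at their starts, and the starts of Mrps12 and Sars2, a mitochondrial tRNA synthetase gene, lie 171 bases apart. Of 21 neighbours that were tested and are not members, 7 were higher and 6 lower in Cre against ctrl at day 7 (median 0.04), while 20 of the 21 genes beside them were called (median −0.55). In ctrl with differentiation 7 neighbours rose and 10 fell (median −0.07), against a median of 0.88 for the genes beside them. Ndufb5, beside Mrpl47, and Sars2 were among the neighbours that fell in Cre, by 0.67 and 0.66 on the log2 scale, and Wdfy1, beside Mrpl44, was higher by 0.77.

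Adipocyte markers moved in the same direction as these genes between cell types at day 7, but not with differentiation in Cre + NFIA Δpro#3. All 12 markers of the list (Pparg, Cebpa, Fabp4, Plin1, Adipoq, Cidec, Lipe, Pnpla2, Lpl, Cd36, Retn and Slc2a4) fell in Cre relative to ctrl at day 7, rose with full-length NFIA relative to Cre, and fell with Δpro#3 relative to Cre. Their summed FPKM at day 7 ranged from 22998 to 26693 in ctrl, 4608 to 9861 in Cre, 22015 to 22228 in Cre + NFIA and 885 to 2240 in Cre + NFIA Δpro#3, and at day 0 from 82.8 to 126 over all cell types. From day 0 to day 7 in Cre + NFIA Δpro#3 all 12 markers rose (median log2 change 2.86). Of the 78 genes 3 rose and 11 fell there (median −0.07). Among the Cre libraries of day 7 the order was the same in both sums, with replicate 2 highest (9861 for the markers and 3244 for the 78 genes) and replicate 3 lowest (4608 and 2742). In Cre + NFIA Δpro#3 the order differed, replicate 3 having the highest marker sum (2240) and the lowest sum of the 78 genes (2460). The part of adipocyte number in these results was not tested, and in bulk RNA fewer cells of a type and less RNA per cell cannot be told apart. The 6 stromal markers (Pdgfra, Ly6a, Dcn, Col1a1, Col3a1 and Thy1) summed to 1282 to 1398 FPKM in ctrl at day 7, 2245 to 2526 in Cre, 994 to 1115 in Cre + NFIA and 2455 to 2881 in Cre + NFIA Δpro#3, sums made up mostly by Ly6a, Col1a1 and Col3a1. Of the 6, 4 were higher and 1, Dcn, was lower in Cre than in ctrl at day 7 (−0.81 for Dcn), and 5 were lower in Cre + NFIA than in Cre. At day 0 4 of the 6 were already lower in Cre than in ctrl and none was higher (median −0.80). The part of stromal cells was not tested.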

How the data were processed

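RNA was prepared with a stranded mRNA kit and sequenced in pairs. Per the study's methods and the submitters' processing notes, the authors aligned reads to mm9 with STAR 2.5.3a, kept unique alignments, took matching-strand gene counts and deposited them as FPKM (reads scaled to gene length in kilobases and to library depth). The annotation is not given in the sources used here. 100% of the values were whole multiples of 1 read (within 0.05 reads), so totals and read counts were recovered. Since the unit was FPKM, log2(FPKM + 1) was tested by limma (version 3.58.1, R 4.3.3, trended variance), for genes of at least 1 FPKM in at least 3 libraries. Differences are on this scale, which shrinks those of low genes. Models within a day held its 12 libraries, others all 24. Called means an adjusted p (Benjamini-Hochberg, all tested genes, two-sided) under 0.05. 3 reads, the floor, were 0.205 to 0.388 RPM (reads scaled to depth), for counting error only. Scripts were tested on simulated data with a spread set in advance. In Cre against ctrl at day 7, 51 of 100 changes of 1.5-fold and 98 of 100 of 3-fold were recovered. In the interaction of day with Cre against ctrl 22 and 92 of 100 were recovered. No 2 libraries were identical, and in 24 replicate pairs chi-square per degree of freedom was 2.21 to 15.91.

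Groups came from the sample labels. The 78 genes and all lists were chosen with earlier results of these data known. Genes named one by one are those with the 5 highest and 5 lowest mean levels, the 3 with the largest called change in each main comparison, and listed genes of known role. Genes that stood aside (Mrpl4, Mrpl13, Mrpl23, Mrpl24, Mrpl43, Mrpl52, Mrps24, Mrps31 and Mrps34), those in short counts, and the neighbours were chosen after their values were seen. Promoters are from RefSeq (GRCm38.p6), positions from GENCODE vM1. Alternatives were a pseudocount of 0.1, no filter, a filter on the mean (5 FPKM), quantile and median-of-ratios scaling, only the groups compared, the replicate block, no trend, fold thresholds and leaving out each library. limma voom on recovered reads was chosen after seeing the data. The study's threshold of 3-fold was an alternative.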

Additional observations from a re-analysis of the deposited data

Results flagged for a closer look

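The change from day 0 to day 7 differed between cell types, as tested with interaction terms in limma (adjusted p under 0.05). Between Cre and ctrl it differed for 69 of the 78 genes, with a median of −0.58 on the log2(FPKM + 1) scale, and it was −1.29 for Mrpl12, −0.98 for Mrpl20 and −0.98 for Mrpl46. Between Cre + NFIA and Cre it differed for 58 genes (median 0.47), and it was 1.01 for Mrpl12, 0.69 for Mrpl42 and 0.52 for Mrps35. Between Cre + NFIA Δpro#3 and Cre it differed for 32 genes (median −0.32), and it was −0.69 for Mrps6, −0.79 for Mrps35 and −0.72 for Mrpl38. Of all tested genes 49.2%, 48.9% and 18.2% were called in these 3 tests, in the same order and in either direction. The 3 tests share the Cre libraries.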

How the results depend on the processing

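No median of the 78 genes, and no balance between their higher and lower calls, turned in direction under any alternative run. Single genes were called against the rest with quantile normalization. In ctrl between days 74 were then higher and 1 lower, although all 78 changes were above 0 without it. The interaction with full-length NFIA was then higher for 57 genes and lower for 1. In Cre + NFIA Δpro#3 against Cre + NFIA at day 7, 74 were then lower and 1 higher. The balance of cytosolic ribosomal protein genes and that of all tested genes turned with the scaling, as given with those results. With a change of at least 1.5-fold the genes called were 24 (Cre against ctrl, day 7), 33 (Cre + NFIA against Cre, day 7), 0 (Cre + NFIA Δpro#3 against Cre, day 7), 0, 1 and 1 (the same comparisons at day 0), 8 (Cre, day 7 against day 0), 0 (Cre + NFIA Δpro#3, day 7 against day 0), and 37, 22 and 11 for the interactions. With 3-fold 1 gene was called in Cre + NFIA Δpro#3 against Cre + NFIA, 3 in ctrl and 2 in Cre + NFIA between days, and 0 elsewhere. With only the groups compared in the model, 5 genes were called in Cre + NFIA Δpro#3 against Cre at day 7 and 0 in Cre against ctrl at day 0. Without the filter 8 and 9 were called at day 0 in Cre + NFIA and in Cre + NFIA Δpro#3 against Cre, the cause of which was not tested.

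Median-of-ratios scaling moved the median of all genes by −0.10 in Cre against ctrl at day 7 and by −0.10 and 0.11 in the interactions with Cre and with full-length NFIA, and quantile normalization moved it by −0.10 in Cre between days. The medians of the 78 genes then were −0.60, 0.67 and −0.81 at day 7 (Cre against ctrl, Cre + NFIA against Cre, Cre + NFIA Δpro#3 against Cre + NFIA), 0.80 in Cre + NFIA between days, 0.093 in Cre + NFIA against Cre at day 0, and −0.69 and 0.59 in the interactions. Relative to all genes the medians were −0.56 and −0.59 (Cre against ctrl, day 7) before and after this scaling. The added alternative, voom on the recovered reads, called 72, 74, 12 and 77 genes in the comparisons of day 7. In Cre + NFIA between days the median was 0.64 with quantile normalization, 0.74 with a pseudocount of 0.1 and 0.74 with voom, and at day 0 in Cre + NFIA against Cre it was 0.089 with quantile normalization.

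Leaving out 1 library gave 8 to 25 genes in Cre + NFIA Δpro#3 against Cre at day 7. At day 0 it gave 1 to 4 in Cre against ctrl (1 without Cre replicate 2 or 3), 6 to 10 in Cre + NFIA against Cre (median 0.11 to 0.15) and 6 to 12 in Cre + NFIA Δpro#3 against Cre, the lowest without Cre + NFIA replicate 1 and Cre + NFIA Δpro#3 replicate 3. Between days it gave 7 to 13 in Cre + NFIA Δpro#3 (7 without its replicate 3 of day 7, 9 without its replicate 3 of day 0) and a median of 0.70 to 0.73 in Cre + NFIA. In the interactions it gave 18 to 38 for Cre + NFIA Δpro#3 and a median of 0.44 to 0.53 for Cre + NFIA.

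The replicate numbers did not pair the libraries: same-numbered libraries correlated by −0.274 to 0.201 in their deviations. With the replicate block 21 genes were called in Cre + NFIA Δpro#3 against Cre at day 7, against 73, 74 and 77 in the other comparisons of day 7, and no other count moved by over 1.5 times. Depth limits little here, since the lowest value of any of the 78 genes was 74 reads, whereas 3 libraries per group limit the error of each difference.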
